A study of Mus musculus with 19 samples.

Results

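The Schlafen genes Slfn1, Slfn2, Slfn3, Slfn4 and Slfn5 were followed in leukocyte RNA of DBA/2 and B6 mice after administration of CAWS, the water-soluble fraction of Candida albicans. CAWS is a complex of mannoprotein and beta-glucan that induces vasculitis of the coronary arteries and aorta in mice. The members were every non-control probe of the array whose gene name in the scanner files was Slfn1 to Slfn5. They amounted to 5 of 27745 gene names and 6 of 41174 probes. All mice were male, none of the labels named a transgene or gave an age, and all groups had received CAWS intraperitoneally, so no uninjected mice entered any comparison. The 10 groups were DBA/2 and B6 mice at weeks 0, 2, 4, 8 and 9, where week 0 stood right after the last of the daily injections and the other weeks were counted from it. DBA/2 mice die of the vasculitis in the following weeks and few B6 mice do, and the later samples came from survivors. The question was which changes from week 0 arose in each strain and which differed between the strains.

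Each group held 2 samples, except B6 at week 2 and at week 9 with 1 sample each, which made 18 RNA samples. The labels call the samples biological replicates and do not say whether RNA of several mice was pooled, while the paper's methods speak of labelled RNA from individual mice. RNA was taken from leukocytes captured from whole blood, which include granulocytes, although the labels also speak of PBMC. Each of the 19 arrays was a 1-color Agilent whole mouse genome array, and B6 week 0 replicate 2 was hybridized to 2 arrays, which were averaged and counted as 1 sample. All levels below are log2 of the processed signal minus the log2 of the array's 75th percentile, so that 0 is the level of a bright probe. Between 33.9% and 51.4% of the spots of an array were well above background, the scanner software's call that a spot exceeds its local background. Differences were tested with limma over 22939 probes, and "rose" or "fell" is used where the Benjamini-Hochberg adjusted p was under 0.05. Where a fold is given as a lower bound, the adjusted p beside it is that of the fitted difference, and the bound was not tested. The number of arrays limits the precision.

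Schlafen genes take their name from the German word for sleeping, because forced expression of Slfn1 stops thymocytes from growing. The mouse family lies in a cluster on chromosome 11 and falls into short proteins (Slfn1 and Slfn2), intermediate proteins (Slfn3 and Slfn4) and long proteins with a helicase-like part, among them Slfn5. Several members are induced by interferon and during activation of macrophages, and loss of Slfn2 breaks the quiescence of T cells and monocytes.

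The start regions of the 5 genes are shown because the short and intermediate members shared a run of bases that Slfn5 lacked. Promoters of 300 bases, from 250 bases before to 50 bases after each annotated start, came from RefSeq on GRCm38.p6, an assembly of the C57BL/6J strain. All 5 genes had an entry, and all lay on the + strand. Capitals mark ACTTCCTGG in Slfn1 to Slfn4 and GAAA, any 2 bases and GAAA, the core of the interferon-stimulated response element, in Slfn5. The windows were chr11:83116710-83116790 for Slfn1, chr11:83065021-83065101 for Slfn2, chr11:83191252-83191332 for Slfn3, chr11:83175077-83175157 for Slfn4 and chr11:82951912-82951992 for Slfn5.
Slfn1: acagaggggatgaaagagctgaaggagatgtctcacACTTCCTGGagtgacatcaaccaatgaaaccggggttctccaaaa
Slfn2: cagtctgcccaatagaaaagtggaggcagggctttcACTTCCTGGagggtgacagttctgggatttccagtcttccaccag
Slfn3: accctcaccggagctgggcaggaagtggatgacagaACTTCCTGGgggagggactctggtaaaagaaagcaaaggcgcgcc
Slfn4: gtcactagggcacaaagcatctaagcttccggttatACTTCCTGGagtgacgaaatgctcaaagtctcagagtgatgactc
Slfn5: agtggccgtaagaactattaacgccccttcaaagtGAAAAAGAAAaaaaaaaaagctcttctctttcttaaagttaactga

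The run ACTTCCTGG began 74 bases before the start in Slfn1, 55 in Slfn2, 42 in Slfn3 and 73 in Slfn4. It was picked after these promoters had been viewed, so its presence in them is a description. It stood on either strand in 277 of 32851 promoters, which is 0.843%. The interferon element core was found in 3.44% of promoters, among them Slfn5, where it began 155 bases before the start, Slfn8 and Slfn9, and in none of Slfn1 to Slfn4. TTCNNNGAA, the core of the gamma-activated sequence, was in 8.3% of promoters and in none of the 5. No member's promoter held more than 1 of these motifs, so they did not overlap, and the DBA/2 sequence was not used here.

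All 5 members had at least 1 probe that passed the filter of being well above background in at least 2 samples, and that probe led the gene. The leading probes lie on chromosome 11 of mm8 at 82938349-82938408 (Slfn1), 82886484-82886543 (Slfn2), 83031124-83031183 (Slfn3), 83005667-83005726 (Slfn4) and 82778342-82778401 (Slfn5). The second probe of Slfn3, at 83033757-83033816, was well above background in DBA/2 week 9 replicate 1 alone, at -3.73, and was not tested. Slfn3 and Slfn4 are close relatives, and sharing of signal between their probes was not tested. Nor were strain differences in sequence under the probes, which cannot be told apart from differences in RNA level between strains.

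In CAWS-administered DBA/2 mice, all 5 Schlafen genes stood above week 0 at weeks 4 and 8. Slfn3 and Slfn4, the intermediate members, had risen 2.89-fold and 2.94-fold already at week 2 and reached 4.64-fold and 4.61-fold at week 8. Slfn1 and Slfn2 rose more slowly, to 1.94-fold and 2.12-fold at week 8. At week 9, Slfn3 and Slfn4 were still above week 0, while the changes of Slfn1 and Slfn2 no longer passed the test.

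Slfn4, an intermediate member induced in activated macrophages and other myeloid cells, read -2.15 and -2.05 at week 0, -0.59 and -0.50 at week 2, -0.00 and -0.04 at week 4, 0.11 and 0.10 at week 8, and -0.68 and -0.74 at week 9 in DBA/2 mice. Every later sample lay above both samples of week 0, and the highest level was at week 8. The log2 change was 1.56 ± 0.17 (SE) at week 2 (adjusted p = 0.00055), 2.08 at week 4 (6.1e-05), 2.21 at week 8 (2.3e-05) and 1.39 at week 9 (0.0004). For each DBA/2 replicate, the arrays of weeks 0 to 8 shared a slide, and within these slides the change of Slfn4 at week 8 was 2.26 and 2.15.

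Slfn3, which is expressed in T cells and gut epithelium and grouped with Slfn4 by its length, followed nearly the same course. Its DBA/2 levels were -3.72 and -3.86 at week 0, -2.20 and -2.32 at week 2, -1.77 and -1.88 at week 4, -1.53 and -1.62 at week 8, and -2.45 and -2.36 at week 9. No later sample overlapped with week 0, and within the slides the change at week 8 was 2.19 and 2.24. The fitted change was 1.53 ± 0.13 at week 2 (adjusted p = 0.00017), 1.96 at week 4 (1.7e-05), 2.22 at week 8 (4.1e-06) and 1.39 at week 9 (9.9e-05).

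Slfn2, the short member tied to T cell quiescence, read -1.03 and -1.15 at week 0, -0.64 and -0.69 at week 2, -0.26 and -0.42 at week 4, 0.05 and -0.06 at week 8, and -0.95 and -0.99 at week 9 in DBA/2 mice. The samples climbed week by week without overlap up to week 8, and those of week 9 lay just above week 0. The change was 0.43 ± 0.08 at week 2 (adjusted p = 0.0084), 0.75 at week 4 (0.00038), 1.09 at week 8 (2e-05) and 0.12 at week 9, with a 95% interval from -0.07 to 0.31 (0.33). The change at week 2 lost its call without DBA/2 week 0 replicate 2 (0.37, adjusted p = 0.067) or DBA/2 week 2 replicate 1 (0.41, adjusted p = 0.057). On the same slides, the change of Slfn2 at week 8 was 1.08 and 1.10.

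Slfn1, the short member that gave the family its name, stood at -3.52 and -3.49 at week 0, -3.05 and -3.03 at week 2, -2.76 and -2.73 at week 4, -2.59 and -2.51 at week 8, and -3.38 and -3.00 at week 9 in DBA/2 mice. Replicates lay close together except at week 9. The change was 0.46 ± 0.13 at week 2 (adjusted p = 0.045), 0.76 at week 4 (0.0049), 0.95 at week 8 (0.00078) and 0.32 at week 9 (0.11; 95% interval 0.01 to 0.62). The call at week 2 was near its threshold and was lost when any of 12 samples was left out, with adjusted p from 0.06 to 0.175, while that at week 9 was gained without DBA/2 week 9 replicate 1 (0.50, adjusted p = 0.020).

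Slfn5, the long member known as interferon-induced, was dim. It was well above background in 5 of the 18 samples, namely DBA/2 week 2 replicate 1, DBA/2 week 4 replicate 1, both samples of DBA/2 week 8 and B6 week 8 replicate 1. DBA/2 levels were -6.02 and -6.43 at week 0, -4.67 and -5.53 at week 2, -3.48 and -4.20 at week 4, -3.14 and -4.13 at week 8, and -4.86 and -4.57 at week 9. From week 0 to week 8 replicates lay farther apart than those of the other members, but the samples of weeks 4 and 8 lay above all others of that strain. Slfn5 was not well above background in either week 0 sample, so its folds are lower bounds, taken against the lowest signal called well above background on the week 0 arrays or the probe's own signal where that was higher. It was at least 2.04-fold higher at week 4 (adjusted p = 0.0047) and no less than 2.34-fold above it at week 8 (adjusted p = 0.0017). Both adjusted p-values belong to the fitted differences, not to the bounds. The difference at week 2 was 1.13 ± 0.42 (adjusted p = 0.11), and with the scan day, which matched the replicate number in every sample, as a block its adjusted p was 0.0232. That at week 9, 1.51 (adjusted p = 0.024), set 2 groups against each other that both lacked a signal well above background. The call at week 9 was lost without either replicate of DBA/2 week 0 (1.72 and 1.30, adjusted p = 0.056 and 0.13) or DBA/2 week 9 replicate 2 (1.36, adjusted p = 0.12).

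The number of member probes that rose in DBA/2 mice was 4 of 5 at week 2, where 7.9% of all tested probes rose, 5 of 5 at week 4 (7.58% of all), 5 of 5 at week 8 (10% of all) and 3 of 5 at week 9 (13.4% of all, and the 3 include the below-background difference of Slfn5). No member fell. The median fitted change of the 5 probes was 1.13, 1.96, 2.21 and 1.39 at the 4 weeks, beside -0.05, -0.10, -0.18 and -0.03 over all tested probes. The 1.13 is the value of Slfn5 itself, and with Slfn5 at its lower bound, or left out at weeks 2 and 9 where it had none, the medians were 1.00, 1.03, 1.23 and 0.85. Without DBA/2 week 0 replicate 2 or DBA/2 week 2 replicate 1, the count at week 2 dropped to 2. With another background correction, limma's normexp with an offset of 50 on the raw spot signal, the counts were 0, 1, 2 and 2.

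**Figure D1:**
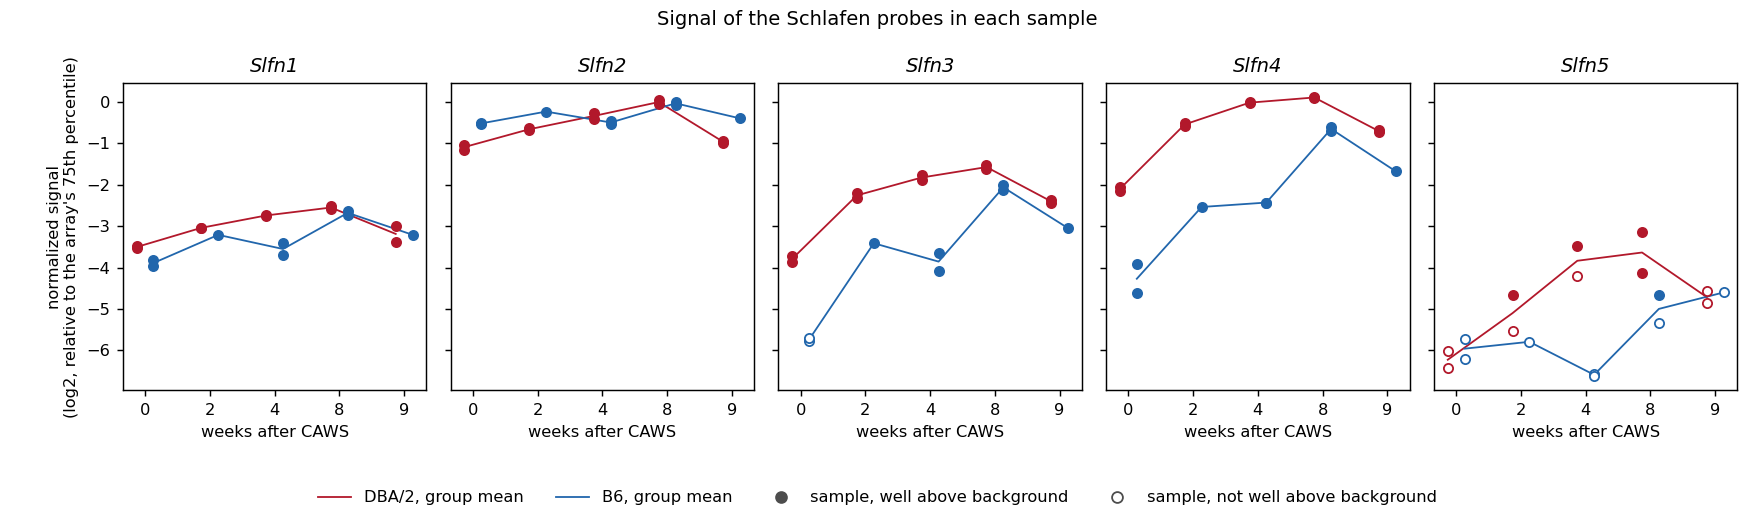
Level of the 5 leading Schlafen probes (log2 of the processed signal relative to the array's 75th percentile, y axis) against weeks after CAWS (evenly spaced, x axis), with a point for each sample, lines through the group means of DBA/2 and B6 mice, and open points where no array of the sample was well above background. Slfn3 and Slfn4 rose in both strains to a highest level at week 8, and Slfn5 separated from its week 0 level mainly in DBA/2 mice.

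In B6 mice, Slfn3 and Slfn4 rose at every later week and most at week 8. Slfn4 was 12.3-fold above week 0 at week 8 and Slfn3 at least 6.46-fold. Slfn1 rose at weeks 2, 8 and 9 and Slfn2 at week 8 alone, by 1.40-fold. Slfn5 was mostly below background, and its changes did not pass the test as reported. Those of weeks 8 and 9 passed with a block for scan day, and also in the deposited value table without scaling between arrays (1.98 and 1.82). The values of that table carry a shift shared by all probes. At week 9, as at week 0, no B6 sample had a Slfn5 signal well above background. The B6 week 0 samples are the reference of all these values, and they carried liver transcripts, which is described with the marker lists.

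Slfn4 read -4.62 and -3.93 at week 0, -2.54 at week 2, -2.43 and -2.43 at week 4, -0.70 and -0.61 at week 8, and -1.68 at week 9 in B6 mice. All later samples lay above week 0, the samples of weeks 2 and 4 hardly differed, and the week 0 replicates were the farthest apart. The log2 change was 1.73 ± 0.21 at week 2 (adjusted p = 0.00052), 1.84 ± 0.17 at week 4 (0.00015), 3.62 at week 8 (1.5e-06) and 2.59 at week 9 (7.7e-05). The second array of B6 week 0 replicate 2 shared a slide with a sample of week 8, and within that slide the week 8 change of Slfn4 was 3.02. Within the slides that held both weeks, the week 4 change of Slfn4 was 1.20 and 2.19.

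The 3 arrays of B6 week 0 gave no Slfn3 signal well above background, with levels of -5.77 and -5.71. Slfn3 stood at -3.41 at week 2, -3.64 and -4.07 at week 4, -2.12 and -2.005 at week 8, and -3.05 at week 9. Each later sample was well apart from week 0, and week 8 was again the highest. Within the slide that held both, the change of Slfn3 at week 8 was 3.89. Slfn3 was at least 2.54-fold higher at week 2 (adjusted p = 2.2e-05), at least 1.87-fold at week 4 (2.5e-05), at least 6.46-fold at week 8 (2.8e-07) and at least 3.26-fold at week 9 (1.3e-05). These adjusted p-values belong to the fitted differences from the below-background week 0 level, not to the bounds.

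Slfn2 levels in B6 mice were -0.53 and -0.51 at week 0, -0.23 at week 2, -0.46 and -0.54 at week 4, -0.00 and -0.07 at week 8, and -0.40 at week 9. The week 4 samples lay around the level of week 0, and week 8 was the farthest above it. The change was 0.28 ± 0.10 at week 2 (adjusted p = 0.12), 0.02 at week 4 (0.93; 95% interval -0.17 to 0.21), 0.48 at week 8 (0.0031) and 0.12 at week 9 (0.57). With the slide as a random block, the change at week 2 had an adjusted p of 0.033.

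Slfn1 levels in B6 mice were -3.96 and -3.82 at week 0, -3.21 at week 2, -3.40 and -3.70 at week 4, -2.63 and -2.73 at week 8, and -3.21 at week 9. Both samples of week 8 stood clear of the other weeks. Slfn1 rose by 0.68 ± 0.16 at week 2 (adjusted p = 0.024), 1.21 at week 8 (0.00022) and 0.68 at week 9 (0.032). At week 4 the difference was 0.34 (adjusted p = 0.13; 95% interval 0.04 to 0.64). Without B6 week 0 replicate 1, the values at weeks 2 and 9 were 0.61 and 0.61 and no longer passed (adjusted p = 0.10 and 0.13), and without B6 week 0 replicate 2 that at week 9 was 0.75 (adjusted p = 0.065). It also missed the threshold without either replicate of DBA/2 week 2 (adjusted p = 0.051). With normexp at an offset of 50, Slfn1 turned to -0.15 at week 8 and -0.19 at week 9.

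Slfn5 levels in B6 mice were -5.72 and -6.20 at week 0, -5.79 at week 2, -6.56 and -6.62 at week 4, -4.66 and -5.34 at week 8, and -4.60 at week 9. Except in B6 week 8 replicate 1, none of these was well above background, so their order carries little information. The difference from week 0 was 0.96 at week 8 (adjusted p = 0.14) and 1.36 at week 9 (0.15). With the scan day as a block these became 0.96 (adjusted p = 0.0378) and 1.60 (0.02). Replicate 1 read above replicate 2 for Slfn5 in 7 of the 8 groups with 2 samples. The same held for Slfn2 in 7, Slfn3 in 5, Slfn4 in 4 and Slfn1 in 2 of the 8. The single sample of B6 week 2 was replicate 1 and that of week 9 replicate 2.

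Among the 5 member probes in B6 mice, 3 rose at week 2 (5.29% of all tested probes rose), 2 at week 4 (6.02%), 4 at week 8 (11%) and 3 at week 9 (5.48%), and none fell. Their median fitted change was 0.68, 0.34, 1.21 and 1.36, against 0.08, -0.03, -0.04 and 0.00 over all tested probes. The 1.36 is the value of Slfn5 between groups that were both below background. With Slfn3 at its lower bound and Slfn5 left out, the medians over 4 probes were 1.01, 0.62, 1.95 and 1.19. The weeks of a strain share its week 0 samples, so these counts are not independent of each other. With normexp at an offset of 50 they were 0, 0, 1 and 0.

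**Figure D2:**
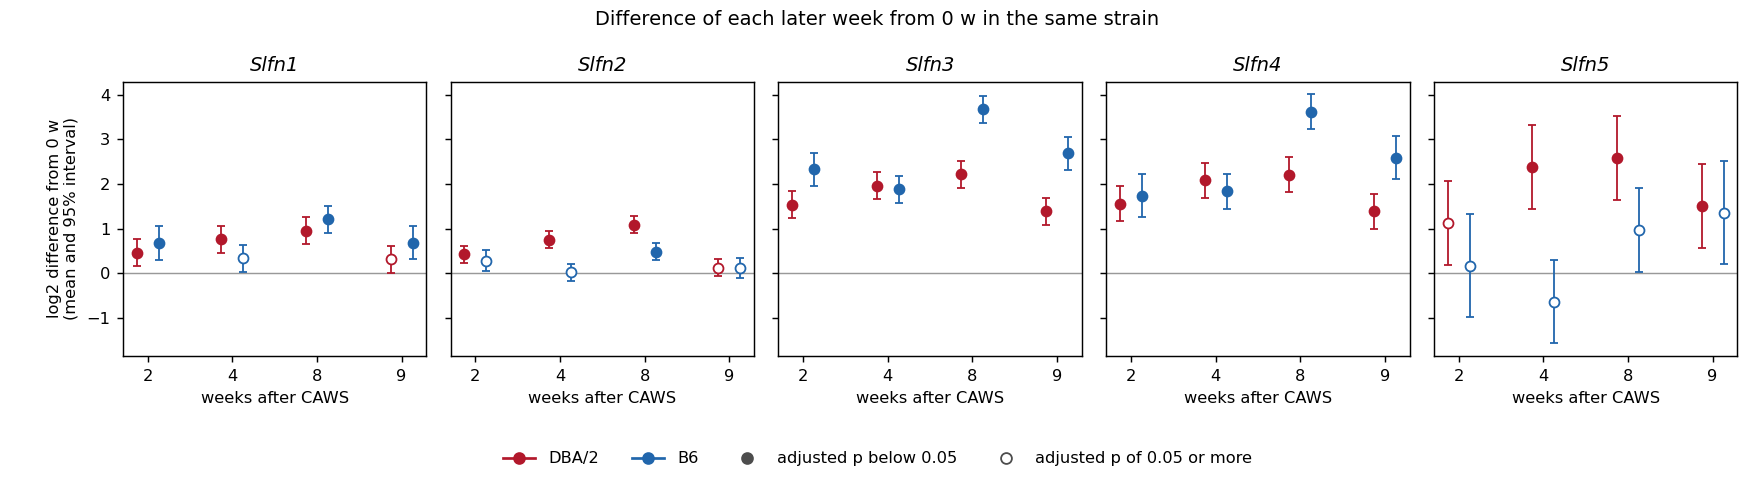
Log2 change from week 0 of each Schlafen member at weeks 2, 4, 8 and 9 in DBA/2 and B6 mice, with bars for the 95% interval of the limma fit and filled points where the adjusted p was under 0.05 (weeks evenly spaced). Slfn4 reads 3.62 in B6 and 2.21 in DBA/2 mice at week 8. The B6 points of Slfn3 and the points of Slfn5 in both strains are fitted values against a week 0 level below background, so their sizes are not fixed.

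The fitted changes differed between the strains for some members. Averaged over weeks 4 and 8, Slfn2 rose more in DBA/2 mice than in B6 mice, by 0.67 ± 0.10 on the log2 scale (adjusted p = 0.0029). The fitted difference of Slfn5 was 2.33 ± 0.51 (adjusted p = 0.017), but it was below background in both week 0 groups and at B6 week 4, so its size is not fixed. That of Slfn3 was -0.69 ± 0.17 (adjusted p = 0.024), against a B6 week 0 level below background. For Slfn4 the difference was -0.58 ± 0.21 (adjusted p = 0.11; 95% interval -1.07 to -0.10) and for Slfn1 0.08 (adjusted p = 0.83; 95% interval -0.29 to 0.45). These are 3 of 5 probes, where 13.2% of all tested probes were called in either direction, and the count dropped to 1 without B6 week 0 replicate 1 or without DBA/2 week 0 replicate 2. Slfn3 then read -0.66 (adjusted p = 0.090) and -0.76 (0.052), and Slfn5 2.08 (0.077) and 2.12 (0.074). The Slfn3 difference also lost its call without DBA/2 week 0 replicate 1 (-0.62, adjusted p = 0.098), B6 week 0 replicate 2 (-0.72, 0.066) or any of 3 samples of weeks 4 and 8 (adjusted p = 0.050). The Slfn4 difference gained one without B6 week 0 replicate 2 (-0.93, adjusted p = 0.0020), with that sample read from its first array alone (-0.73, 0.0097) and with the slide as a random block (-0.75, 0.0046).

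By week, the strain difference of Slfn2 was 0.73 at week 4 (adjusted p = 0.0038) and 0.60 at week 8 (0.0079). That of Slfn5 was 3.02 at week 4 (0.0098) and 1.63 at week 8 (0.094, or 0.0205 with the scan day as a block), with both strains below background at week 0 and B6 also at week 4. Slfn3 and Slfn4 did not differ detectably at week 4, with 0.08 (95% interval -0.35 to 0.51) and 0.24 (-0.31 to 0.80), but differed at week 8. There Slfn3 read -1.46 ± 0.19 (adjusted p = 0.00094) and Slfn4 -1.41 ± 0.25 (0.0043), which means a larger rise in B6 mice. At week 9, with 1 B6 sample, the differences were -1.30 for Slfn3 (0.0051) and -1.20 for Slfn4 (0.023). That of Slfn4 lost its call without either replicate of DBA/2 week 0 (adjusted p = 0.050 and 0.064) or without DBA/2 week 9 replicate 2 (0.053). Slfn3 also differed at week 2, by -0.80 (0.034), and this call was lost without either replicate of DBA/2 week 0, DBA/2 week 2 or B6 week 0 (adjusted p from 0.053 to 0.10). The calls were 1 of 5 at week 2 (15.3% of all probes), 2 of 5 at week 4 (11.9%), 3 of 5 at week 8 (17.5%) and 2 of 5 at week 9 (12.3%).

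Because Slfn3 lacked a signal well above background in B6 mice at week 0, its strain differences lean on a value without a firm lower end. At weeks 8 and 9 the lower bound of the B6 rise, 6.46-fold and 3.26-fold, still exceeded the DBA/2 rise of 4.64-fold and 2.61-fold. These comparisons of bounds count no sampling error, and B6 week 9 had 1 sample. At weeks 2 and 4 the bounds of 2.54-fold and 1.87-fold lay under the DBA/2 rises of 2.89-fold and 3.90-fold and do not settle the order. Over the mean of weeks 4 and 8 the order is not settled either, since the bound allows a DBA/2 minus B6 difference of up to 0.29. Slfn4 was well above background on the week 0 arrays of both strains, except 1 of the 2 arrays of B6 week 0 replicate 2.

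The direction of the Slfn3 and Slfn4 differences depended on the background correction. With normexp on the raw spot signal and an offset of 50, the week 8 strain difference became 0.73 for Slfn3 (adjusted p = 0.55) and 0.32 for Slfn4 (0.55). With the offset set to 0, a setting chosen after seeing the data, neither week 8 difference turned its sign, but that of Slfn3 over weeks 4 and 8 was 0.21 (adjusted p = 1.0). Of the 50 member differences past the threshold, 4 kept direction and call at an offset of 0 and 7 at an offset of 50. A processed signal under 50 was found in 41 of the 90 member readings. Among them were all 18 of Slfn5, 12 of Slfn1, 8 of Slfn3, 3 of Slfn4 and none of Slfn2. The part of low signals in the turned signs and lost calls was not tested. Calls over all probes also fell, from 4017 to 126 for the week 8 strain difference and from 5500 to 618 for DBA/2 week 8 against week 0. The Slfn2 difference over weeks 4 and 8 kept its sign with normexp at an offset of 50 but lost its call (0.56, adjusted p = 0.75). It also lost its call in the deposited value table, which is not scaled between arrays (0.06, adjusted p = 0.74). In that table the week 8 strain difference of Slfn2 was -0.59, where the median of all probes lay at -1.26.

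The strains also differed in level, already at week 0. Slfn4 stood 4.50-fold higher in DBA/2 than in B6 mice at week 0 (log2 difference 2.17, adjusted p = 1.6e-05), 5.32-fold higher at week 4 (6.6e-06) and 1.69-fold higher at week 8 (0.010). Slfn3 was at least 1.95-fold higher at week 0 (5.9e-06), 4.08-fold at week 4 (3.8e-06), and higher by 0.49 at week 8 (0.025). Slfn2 was the exception and was lower in DBA/2 mice at week 0, by -0.57 (0.0007), and did not differ detectably at week 4 (0.16, 95% interval -0.03 to 0.35) or week 8 (0.03, -0.16 to 0.22). Slfn1 read 0.39 at week 0 (0.054), 0.81 at week 4 (0.0014) and 0.13 at week 8 (0.54). Slfn5 was at least 1.90-fold higher in DBA/2 mice at week 4 (0.0008) and 2.57-fold at week 8 (0.040). The adjusted p beside each lower bound is that of the fitted difference. With normexp at an offset of 50, the difference turned to -0.27 for Slfn3 at week 0, and to -0.10 for Slfn1 and -0.39 for Slfn5 at week 4. In the unscaled table that of Slfn2 at week 0 was 0.25.

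Of the 5 probes, 3 differed at week 0 (32.7% of all tested probes did), 4 at week 4 (32.1%) and 3 at week 8 (25.4%). At week 8 the calls were weak. All 3 were lost without DBA/2 week 8 replicate 1, where Slfn3 read 0.44, Slfn4 0.75 and Slfn5 0.86 (adjusted p = 0.11, 0.051 and 0.23). Only 1 was left without DBA/2 week 8 replicate 2 or either replicate of B6 week 8. With the slide as a random block, Slfn3 at week 8 read 0.43 (adjusted p = 0.067). No slide held both strains at weeks 0, 4 or 8, so slide and strain cannot be told apart in single slides.

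**Figure D3:**
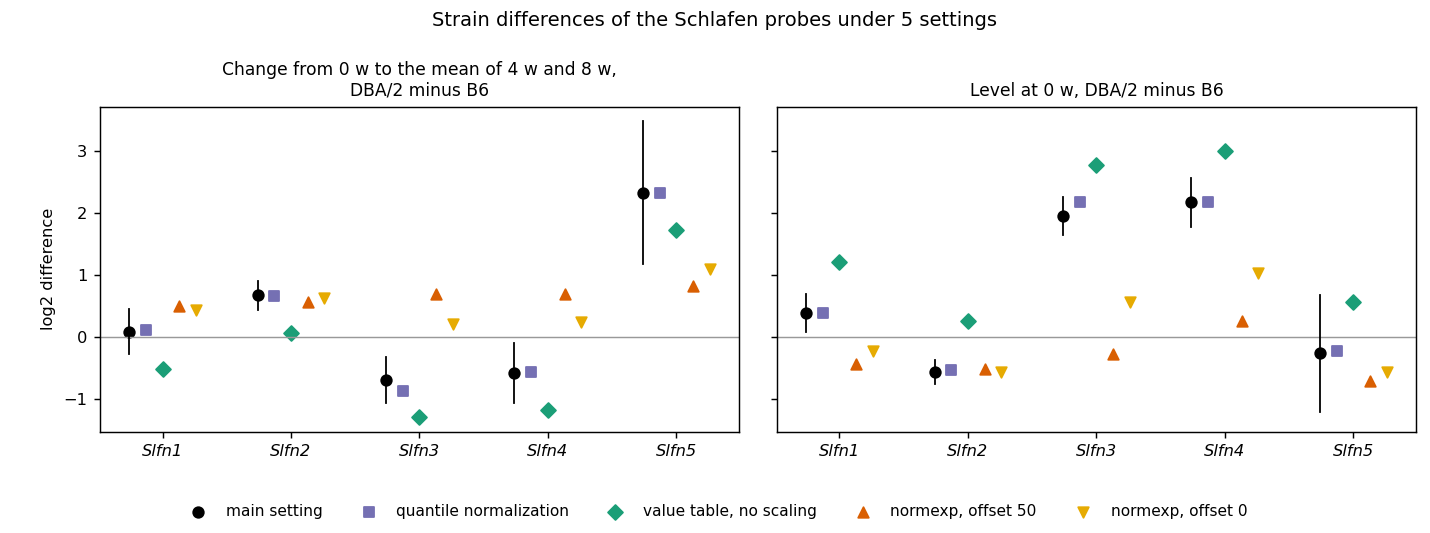
DBA/2 minus B6 differences of the Schlafen probes (log2, y axis) in the change from week 0 to the mean of weeks 4 and 8 (left) and in the level at week 0 (right), under 5 processing settings, with bars for the 95% interval of the reported setting. The change of Slfn3 lies at -0.69 as reported and at 0.69 with normexp at an offset of 50, and that of Slfn4 at -0.58 and 0.69. The Slfn2 change lies above 0 under all 5, but at 0.06 in the unscaled table. It did not pass the test there or with normexp at either offset.

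Ordered by level, Slfn4 was highest in DBA/2 mice at week 8 (0.11), followed by DBA/2 week 4 (-0.02), DBA/2 week 2 (-0.54), B6 week 8 (-0.65), DBA/2 week 9 (-0.71), B6 week 9 (-1.68), DBA/2 week 0 (-2.10), B6 week 4 (-2.43), B6 week 2 (-2.54) and B6 week 0 (-4.27). The neighbours from DBA/2 weeks 8 to 4, from DBA/2 week 2 through B6 week 8 to DBA/2 week 9, and from B6 weeks 4 to 2 lay closer than the standard error of a difference. Slfn3 ran from DBA/2 week 8 (-1.57) to B6 week 0 (-5.74) in nearly the same order, with DBA/2 week 0 (-3.79) and B6 week 4 (-3.86) closer than that error. Slfn2 instead ran from DBA/2 week 8 and B6 week 8, which were not distinguishable, to DBA/2 week 0 as the lowest group (-1.09), below B6 week 0 (-0.52). For Slfn1, the highest groups DBA/2 week 8, B6 week 8 and DBA/2 week 4 were neighbours within the error, and B6 week 0 (-3.89) was lowest.

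Across the 18 samples, which share 10 group means and the 2 strains, Slfn3 and Slfn4 moved together with a Pearson r of 0.983 (0.993 over the 10 DBA/2 samples and 0.980 over the 8 B6 samples). Slfn1 followed them with r of 0.932 and 0.901. Slfn2 moved with Slfn4 within each strain (0.843 in DBA/2, 0.804 in B6) but not across both (0.266), and its strain order at week 0 was the opposite. Of 10905 named genes compared, the levels of Il1rn, which encodes the interleukin 1 receptor antagonist, were the most like those of both Slfn3 and Slfn4 (r = 0.988 each). Next came each other at 0.983, then Gsdme, which encodes a pore-forming gasdermin, for Slfn3 (0.976), and Marcks, a substrate of protein kinase C, for Slfn4 (0.977). The closest for Slfn1 were B430306N03Rik (0.952), the myeloid adaptor gene Pram1 (0.949) and S100a9 (0.938), a calprotectin subunit abundant in neutrophils. Among the genes most like Slfn2 were Mdh2 (0.915), which encodes a mitochondrial malate dehydrogenase, and Vps29 (0.901). Slfn5 was most like Plekhg3 (0.935), Slc28a2 (0.923) and Emilin2 (0.922).

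The array held probes of 5 other Schlafen genes, of which 4 were tested. Slfn10, a pseudogene in newer annotation, was bright, and it was higher in DBA/2 mice at week 0 by 1.09 (adjusted p = 7.4e-06), at week 4 by 1.67 (4.3e-07) and at week 8 by 1.04 (1.3e-05), with group means from 0.13 to 0.46 in DBA/2 and from -1.22 to -0.72 in B6 mice. Slfn8 and Slfn9, which are long members, were higher in DBA/2 mice at week 4, by at least 3.03-fold (2.8e-06) and at least 2.61-fold (9.5e-05). In DBA/2 mice at week 4, Slfn8 rose by 0.55 ± 0.16 (0.048), Slfn9 by 0.64 (0.024) and Slfn10 by 0.33 (0.021), beside 1.96 and 2.08 for Slfn3 and Slfn4. Each of the 3 calls was lost without either replicate of DBA/2 week 0 or DBA/2 week 4. That of Slfn8 was near its threshold. It was also lost without either replicate of B6 weeks 0, 4 or 8 or of DBA/2 weeks 2 or 8, and with quantile normalization (0.66, adjusted p = 0.068). LOC435271, annotated as similar to schlafen 3, rose in B6 mice at week 2 by 1.08 (0.0028) and at week 4 by 0.53 (0.034), and its DBA/2 means stayed between -3.80 and -3.53. Slfnl1, the Schlafen-like gene outside the cluster, was well above background in no sample.

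Processes tied to the family were described by lists of genes. Of 23 tested genes that respond to type I interferon, 14 rose in DBA/2 mice at week 2, 16 at week 4, 18 at week 8 and 20 at week 9, when 1 fell (14.3% of all probes fell). In B6 mice 3 rose and 1 fell at week 2 (7.74% of all fell), 2 rose and 2 fell at week 4 (9.66%), 7 rose and 4 fell at week 8 (10.2%), and 3 rose and 2 fell at week 9 (3.86%). The median change at week 8 was 1.52 in DBA/2 and 0.15 in B6 mice. Isg15, a ubiquitin-like protein, and Irf7, a regulator of interferon genes, rose in DBA/2 mice at week 8 by 1.61 (adjusted p = 3.2e-06) and 2.08 (6e-07), and fell in B6 mice by 1.05 (6e-05) and 1.23 (2.4e-05). Ifit1 rose in DBA/2 mice by 1.75 and read -0.23 in B6 mice (0.20), while Mx1, well above background in 5 samples, read 0.73 (0.50) and -0.11. Over weeks 4 and 8, 14 of the 23 rose more in DBA/2 than in B6 mice and none less (6.48% of all probes rose more). The levels differed already at week 0, where 12 of the 23 were lower in DBA/2 mice and 3 higher (32.7% of all probes differed), with a median of -0.87. At week 4, 5 were lower and 10 higher (32.1% of all). Irf7 still read lower in DBA/2 mice at week 8 (-1.20 and -1.19 against -0.27 and -0.31), while Ifit1 read higher (-0.84 and -0.85 against -1.39 and -1.45).

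Genes of lymphocyte quiescence and of naive T cells were mostly lower in DBA/2 mice at week 8, where 8 of 13 fell and 1 rose (14% of all probes fell), with a median of -0.67. In B6 mice at week 8, 3 fell and 2 rose (10.2% and 11% of all probes). Klf2, a quiescence factor of T cells, read -0.45 (adjusted p = 0.52) and -1.32 (0.054) in DBA/2 and B6 mice. Of 14 tested cell cycle genes, 2 rose and 2 fell in DBA/2 mice at week 8, close to the shares of all probes (10% and 14%). In B6 mice 6 fell (10.2% of all probes). Mki67, a marker of proliferating cells, fell by 0.45 (0.041) and 0.72 (0.0050), and Top2a, a topoisomerase of dividing cells, read -0.26 (0.46) and fell by 0.95 (0.012) in B6 mice.

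Markers of neutrophils rose in the same weeks as Slfn3 and Slfn4. All 9 tested neutrophil genes rose at weeks 4, 8 and 9 in DBA/2 mice and at weeks 2, 8 and 9 in B6 mice, and 8 of 9 at DBA/2 week 2 and B6 week 4. Of all tested probes, 7.9%, 7.58%, 10% and 13.4% rose in DBA/2 mice at weeks 2, 4, 8 and 9. In B6 mice the shares were 5.29%, 6.02%, 11% and 5.48%, with 1 sample each at weeks 2 and 9. Their median change at week 8 was 2.78 in DBA/2 and 3.06 in B6 mice. The summed level, with the array's 75th percentile as 1, was 105 to 106 in DBA/2 mice at week 0, 278 to 288 at week 2, 332 to 358 at week 4, 696 to 776 at week 8 and 262 to 321 at week 9. In B6 mice it was 55.6 to 55.7 at week 0, 187 at week 2, 138 to 148 at week 4, 426 to 428 at week 8 and 221 at week 9. Monocyte genes rose as well, 7 of 8 at week 8 in DBA/2 and 6 of 8 in B6 mice, with medians of 1.83 and 0.54. In bulk leukocytes, fewer cells of a type and less RNA per cell cannot be told apart, and the part of the neutrophil or monocyte share in the Schlafen changes was not tested.

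T cell and B cell markers moved the other way in DBA/2 mice. At week 8, 10% of all probes rose and 14% fell in DBA/2 mice, and 11% rose and 10.2% fell in B6 mice. In that week, 7 of 10 T cell genes and 5 of 7 B cell genes fell in DBA/2 mice and 2 of 10 and 0 of 7 in B6 mice, and none rose. NK cell genes rose in DBA/2 mice (6 of 7) and fell in B6 mice (5 of 7). Of 8 tissue macrophage genes, 5 rose in DBA/2 mice at week 8, while 2 rose and 2 fell in B6 mice. Of 5 erythroid genes, 2 rose in DBA/2 mice and 5 fell in B6 mice, and of 5 platelet genes 1 and 3 rose. The leukocyte label was checked against Cd3e, at -1.50 to -0.37, Cd79a, at -3.21 to -0.96, Csf1r, at -2.11 to -0.10, and S100a8, at 1.92 to 5.67, markers of T cells, B cells, monocytes and neutrophils that were well above background in all samples. Erythroid and platelet transcripts were present in every group as well, with summed levels of 1696 to 4219 and 116 to 428.

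Liver transcripts set the B6 week 0 samples apart. The summed level of 9 hepatocyte genes was 45.4 to 46.6 in B6 mice at week 0 and 23.9 to 25.2 at week 8, and 0.93 to 2.44 in all other groups. Alb, the gene of albumin, read 3.90 and 3.87 at B6 week 0 and 2.95 and 2.79 at B6 week 8, against -7.70 to -2.37 elsewhere. Of the 9 genes, 8 fell in B6 mice at weeks 2, 4 and 9 and 1 at week 8. All B6 changes of the Schlafen genes are measured against these week 0 samples, and the part of the liver transcripts in them was not tested. The 2 B6 groups that held them, weeks 0 and 8, were the lowest and the highest for Slfn3 and Slfn4 in that strain.

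**Figure D4:**
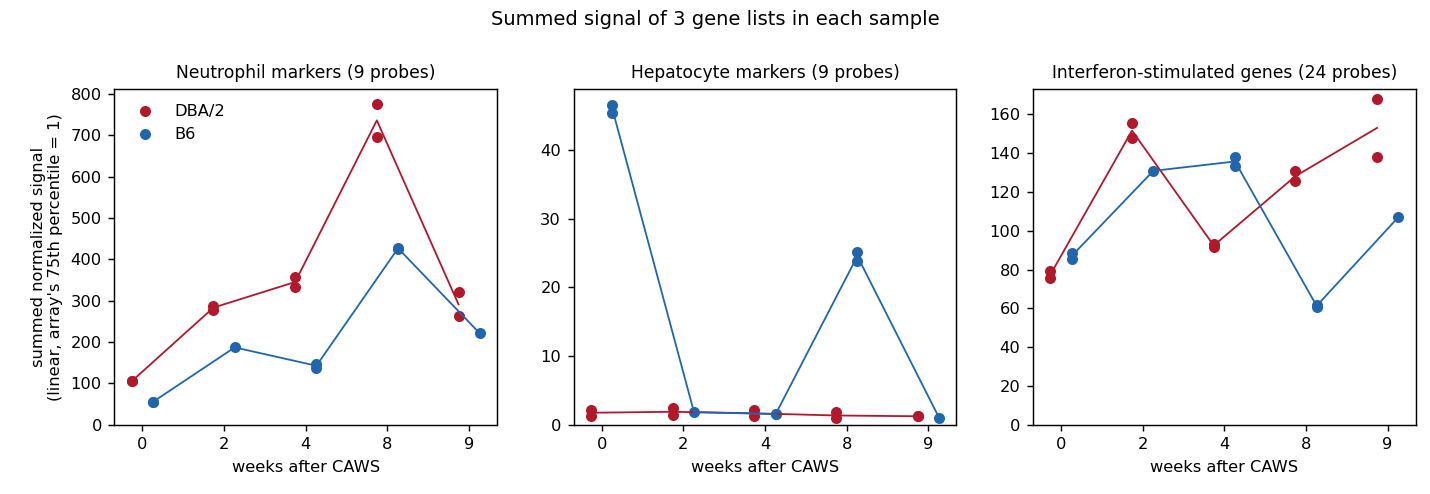
Summed level of the neutrophil, hepatocyte and interferon lists (linear scale, array 75th percentile set to 1, y axis) by week after CAWS (evenly spaced, x axis), with a point for each sample and lines through the group means of DBA/2 and B6 mice. Neutrophil genes peak at week 8 in both strains, at up to 776 in DBA/2 and 428 in B6 mice, and hepatocyte genes stand out at B6 weeks 0 and 8. The interferon sum is higher in B6 than in DBA/2 mice at week 4 (133 to 138 against 91.4 to 93.5) and lower at week 8 (61.0 to 61.7 against 125 to 131).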

How the data were processed

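Leukocyte RNA of 18 samples was hybridized to 19 1-color Agilent arrays. The authors scanned them with Agilent Feature Extraction (version 9.5.3.1 in the submitters' processing notes) and deposited intensity values per spot, of which the background-subtracted processed signal was used. Their value table holds the same signal unscaled, on a linear intensity scale (99.7% of values within 0.01 log2). Control spots and outlier flags were left out, spots of a probe averaged, and log2 signals scaled by subtracting the 75th percentile of the 11536 probes that every array called well above background. Probes well above background in at least 2 samples were tested with limma 3.58.1 (R 4.3.3), with a mean for each of the 10 groups, no pseudocount and Benjamini-Hochberg adjustment over all tested probes. A gene was led by its brightest probe. The fit was tested on simulated data. P-values measure the spread between samples of a group, and the pooled spread stands for groups with 1 sample. The members and lists (interferon, quiescence, cell cycle and 9 cell types) were chosen with earlier results of these data known. The genes named were all Schlafen probes, 8 example genes of the lists and, for each member, the 3 genes with the highest correlation, of which 1 gene is not reported here. Alternatives were other scalings, background corrections, filters, blocks and leaving out samples.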

Additional observations from a re-analysis of the deposited data

Results flagged for a closer look

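The changes of 4 Schlafen genes differed between DBA/2 and B6 mice by a test of the difference itself in limma, and each value is given as the DBA/2 change minus the B6 change on the log2 scale. Slfn2 differed by 0.67 over weeks 4 and 8 (adjusted p = 0.0029), 0.73 at week 4 (0.0038) and 0.60 at week 8 (0.0079). Slfn5 differed by 2.33 over weeks 4 and 8 (adjusted p = 0.017) and by 3.02 at week 4 (0.0098), with both week 0 groups and B6 week 4 below background, so the sizes are not fixed. Slfn3 had fitted differences of the opposite sign, of -0.69 over weeks 4 and 8 (adjusted p = 0.024), -0.80 at week 2 (0.034), -1.46 at week 8 (0.00094) and -1.30 at week 9 (0.0051). It was below background at B6 week 0. With the B6 rise at its lower bound, the direction is not settled at week 2 or over weeks 4 and 8, where the difference could reach 0.19 and 0.29. At weeks 8 and 9 the same bound put the difference at -0.48 and -0.32 or lower. These limits count no sampling error, B6 week 9 had 1 sample, and the direction was not tested against the bound. Slfn4 differed by -1.41 at week 8 (adjusted p = 0.0043) and -1.20 at week 9 (0.023). All 6 values given for Slfn3 and Slfn4 turned their sign with the normexp correction at an offset of 50, and the Slfn2 value at week 8 did so in the unscaled table.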

How the results depend on the processing

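Of the 50 member differences past the threshold, 49 kept their direction and call with the 75th percentile over all probes, the array median or quantile scaling, 39 without a filter on dim probes, and all 43 still tested with a filter of 9 samples. The replicate block, which is also a scan-day block, changed no call among the 50. Deviations of same-numbered samples correlated between -0.011 and 0.455 over 28 pairs of groups, 12 of them over 0.1, so pairing by number did not hold in every pair, and a scan-day effect is not excluded. With this block Slfn5 also passed at DBA/2 week 2 (1.13), B6 week 8 (0.96) and B6 week 9 (1.60) and its strain difference at week 8 (1.63, adjusted p = 0.021), and its B6 week 2 value was -0.079. The slide block, with a correlation of 0.397, kept 49, and with it Slfn2 at B6 week 2 (adjusted p = 0.0328), Slfn5 at DBA/2 week 2 (0.0317) and the Slfn4 strain difference over weeks 4 and 8 (-0.75, 0.0046) passed as well.

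The unscaled table kept 40 of the 50. It moved the median of all probes by up to 0.98 within a strain, so its values are relative to that shift. Turned values were Slfn1 at DBA/2 week 9 (-0.11), in the strain difference over weeks 4 and 8 (-0.52) and between strains at week 8 (-0.24). They were also Slfn2 at DBA/2 week 9 (-0.31), in the strain difference at week 8 (-0.59), and between strains at week 0 (0.25) and week 8 (-0.34), Slfn5 between strains at week 0 (0.55), and Ifit1 (0.79), Mx1 (0.91), Mki67 (0.30) and Top2a (0.072) at B6 week 8.

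Normexp with an offset of 50 kept 7 of the 50, with 11 turned. The offset compresses low signals by construction, and the cause of the turned signs was not tested further. Slfn1 read -0.15 at B6 week 8, -0.19 at B6 week 9, 0.64 in the strain difference at week 8, and -0.45 and -0.10 between strains at weeks 0 and 4. Slfn2 read -0.018 between strains at week 4. Slfn3 strain differences were 0.69 over weeks 4 and 8, 0.46 at week 2, 0.73 at week 8 and 1.20 at week 9, and its strain level at week 0 -0.27. Slfn4 strain differences were 0.69, 0.32 at week 8 and 0.63 at week 9. Slfn5 read -0.036, 0.0076, -0.79 and -0.16 at B6 weeks 2, 4, 8 and 9, and -0.39 between strains at week 4. Between strains at weeks 0 and 4, Slfn8 read -0.35 and -0.23 and Slfn9 -0.52 and -0.31.

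With the offset at 0, chosen after seeing the data, 4 of the 50 were kept. Turned values were Slfn1 at B6 week 9 (-0.014), in the strain difference at week 8 (0.38) and at week 0 (-0.23), Slfn3 strain differences (0.21, 0.28 at week 2, 0.87 at week 9), Slfn4 strain differences (0.23, 0.13 at week 9), Slfn5 at B6 week 2 (-0.13), week 4 (0.33) and week 8 (-0.37), and Slfn9 at week 0 (-0.27). Other turned values were small: Slfn2 at DBA/2 week 9 with outlier spots kept (-0.0013), Slfn3 in the week 4 strain difference with quantile scaling (-0.16) or the second B6 week 0 array (-0.014), Slfn5 at B6 week 2 with that array (-0.068), and Mx1 at B6 week 8 with quantile scaling (0.22) or that array (0.15). With a sample left out, uncalled values that crossed 0 ranged from -0.018 to 0.061 for Slfn2 at B6 week 4, from -0.021 to 0.081 for Slfn2 between strains at week 8, from -0.077 to 0.41 for Slfn5 at B6 week 2 and from -0.86 to 0.64 for Mx1 at B6 week 8. In the week 4 strain difference they ranged from -0.14 to 0.30 for Slfn3 and from -0.10 to 0.59 for Slfn4, which passed the test without B6 week 0 replicate 1 (adjusted p = 0.024).

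Counts of member probes past the threshold moved as follows. In the unscaled table they were 2 at DBA/2 week 2, 5 at B6 week 9, 4 for the week 9 strain difference and 1 between strains at week 8. With normexp they were 0 to 2 in the weeks of both strains, 0 for every strain difference, and 0, 1 and 0 between strains at weeks 0, 4 and 8, at either offset. Without a filter they were 2 at DBA/2 week 2, 0 and 1 for the strain differences at weeks 2 and 9, and 1 between strains at week 8. Keeping outlier spots gave 2 at DBA/2 week 2. The week 2 strain difference had 0 with outlier spots, the all-probe percentile, the array median or the first B6 week 0 array. The week 9 strain difference had 1 with the second array, and the week 4 strain difference 1 with the filter of 9 samples, where Slfn5 was not tested.

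With a sample left out, the counts ranged from 2 to 4 at DBA/2 week 2, 5 to 5 at weeks 4 and 8 and 2 to 4 at week 9. In B6 mice they ranged from 2 to 3 at weeks 2 and 9, 2 to 2 at week 4 and 4 to 4 at week 8. Strain differences had 1 to 3 over weeks 4 and 8, 0 to 1 at week 2, 2 to 3 at week 4, 3 to 3 at week 8 and 1 to 2 at week 9. Levels differed for 3 to 4 at week 0, 4 to 4 at week 4 and 0 to 3 at week 8. Of 1608 list counts under other settings, 326 moved by over 1.5 times, and 119 of 1920 with a sample left out. Signal over background limits Slfn5 throughout and Slfn3 in B6 mice at week 0.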
